A study of Homo sapiens with 4 samples.

Results

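The mRNA of p23 and of 8 other cochaperones of the heat shock protein HSP90 was measured by RNA-seq in LNCaP, a human prostate cancer line that responds to androgen. The genes were PTGES3, which encodes p23, and STIP1, CDC37, AHSA1, FKBP4, PPID, CHORDC1, UNC45A and PPP5C. They were listed by name as cochaperones, with earlier results of these data known, and no threshold on their values was used. The files held 19801 genes, of which 14626 reached an RPKM (reads scaled to exon length and library size) of 1 in any library, and all 9 cochaperone genes were among these. The cells received either empty vector or the construct that the labels call AR1-651. Transfection ran for 24 h, and over the next 12 h the cells had no further treatment or were given AIL (ailanthone), a plant-derived compound. The labels give neither a vehicle for the untreated cells nor the promoter of the construct. Each of the 4 combinations of construct and AIL was sequenced as 1 library. Differences between them therefore could not be set against replicate error, and p-values are absent. The title of the series names p23 as the target of AIL, and the comparisons ask how the mRNA of p23 and of its partner cochaperones stood with AIL and with AR1-651.

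HSP90 is a dimeric, ATP-driven chaperone that takes up partly folded client proteins, among them steroid hormone receptors and many protein kinases. Cochaperones set the steps of its cycle: an adaptor brings clients over from HSP70, a kinase-specific partner selects clients, a phosphatase acts on the machine, an activator speeds ATP hydrolysis, immunophilins join the receptor complex, and p23 binds the closed, ATP-bound form last and holds it. When HSP90 or HSP70 is engaged by unfolded protein, heat shock factor 1 (HSF1) binds heat shock elements, inverted repeats of a short unit, in the promoters of chaperone genes.

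The stretches around the transcription start are shown for STIP1 and CHORDC1, the members whose mRNA passed 2-fold in any comparison, and for PTGES3. Each runs from 70 bases before the start to 30 bases after it, in the 5′ to 3′ direction of the gene, from RefSeq on GRCh38.p14. Capitals mark the core heat shock element, GAANNTTC or TTCNNGAA, each of which reads the same on both strands, and neighbouring matches can overlap. The STIP1 stretch is chr11:64186101-64186200 on the plus strand, the CHORDC1 stretch chr11:90223020-90223119 on the minus strand and the PTGES3 stretch chr12:56688255-56688354 on the minus strand.
STIP1: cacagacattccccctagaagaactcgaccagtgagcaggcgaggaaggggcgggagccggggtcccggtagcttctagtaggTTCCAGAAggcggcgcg
CHORDC1: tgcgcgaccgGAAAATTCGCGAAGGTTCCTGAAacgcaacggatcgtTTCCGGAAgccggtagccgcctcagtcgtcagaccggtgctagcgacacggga
PTGES3: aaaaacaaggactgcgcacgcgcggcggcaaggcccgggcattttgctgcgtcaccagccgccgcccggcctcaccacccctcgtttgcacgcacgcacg

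The window searched ran from 250 bases before each start to 50 after it, and 7 of the 9 genes had such a window. The core element was found in 2 of these 7 genes, STIP1 and CHORDC1, and no window was given for FKBP4 and PPP5C. STIP1 held 1 match, at position 14 after the start. CHORDC1 held 6 matches, at positions -205, -60, -55, -50, -45 and -23, of which the 4 from -60 to -45 overlap in the chain printed above. The letters were found in 16.2% of all genes with a window and in 13.5% of all 35116 windows. A match of these letters is a description of the sequence and not a measured binding site, and the windows of PTGES3 held none.

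The labelled cell type and the libraries were checked before the members were compared. The 10 luminal prostate markers all passed the filter, with KLK3 between 287 and 1442 RPKM. The series text also calls the profiles retinal, but CRX, a photoreceptor transcription factor, at 3.24 to 5.77 RPKM was the highest of the 7 retina markers in the files. Of 6 markers of basal prostate or other cells, 4 were in the files, and none exceeded 4.59 RPKM. The libraries are named by their labels throughout. The androgen-responsive gene KLK3 was higher in the library labelled AR1-651, at 1442 RPKM against 287 with empty vector. Ribosomal protein genes took 33.2% of the summed RPKM in the library labelled AR1-651 and 22.4% to 25.6% in the other 3.

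Changes are differences of log2(RPKM + 1), a scale that compresses differences at low RPKM, and a gene counts as called where the difference reaches 2-fold. The median change over all 14626 genes was not at 0. It was -0.30 for the library labelled AR1-651 against empty vector, -0.02 for empty vector + AIL against empty vector, 0.13 for the library labelled AR1-651 + AIL against that labelled AR1-651, and -0.03 between the libraries with AIL. Median-ratio scaling, which sets the typical gene equal between libraries, is therefore given where it alters the direction or call printed for a member in a comparison. Calls of other genes are for the values as deposited unless stated, and scaling can alter them. In bulk RNA, fewer cells with an mRNA and less of it per cell cannot be told apart.

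**Figure D1:**
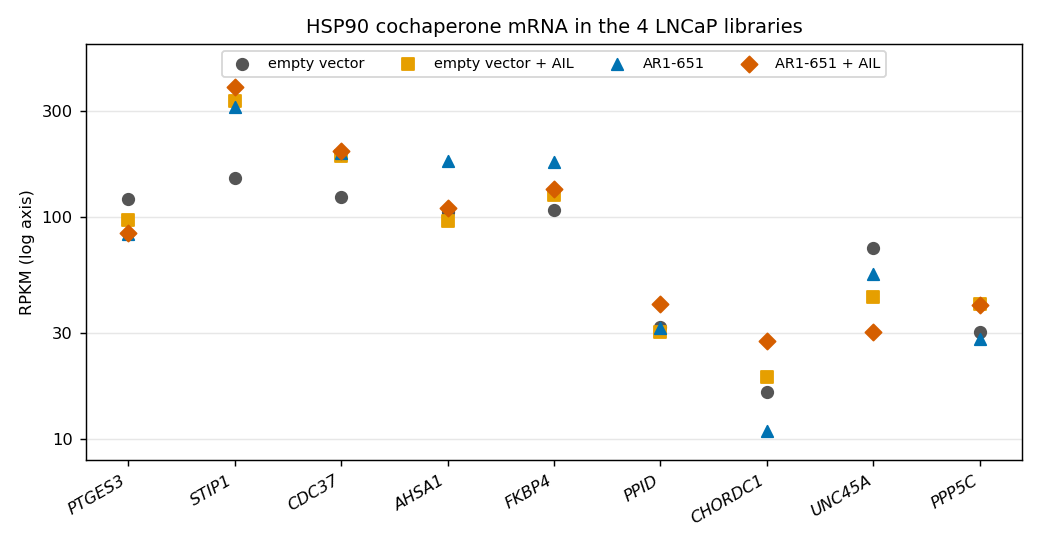
Level of the 9 cochaperone mRNAs in each of the 4 libraries (RPKM, log axis; 1 point is 1 library, with no error bar because each condition has 1 library). STIP1 and CDC37 lie at the top in every library and CHORDC1 lies lowest in every library, while the empty vector point of PTGES3, at 119.7 RPKM, is the highest of its 4.

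p23 mRNA was abundant and lay highest in the untreated empty vector library. PTGES3 (chr12:56663341-56688408, minus strand, GENCODE 29 on GRCh38) was at 119.7 RPKM with empty vector, 96.8 with empty vector + AIL, 83.5 in the library labelled AR1-651 and 84.25 in the library labelled AR1-651 + AIL. These levels exceeded those of 91.8% to 95.8% of the genes kept. The log2 change was -0.30 with AIL in empty vector cells and -0.51 in the library labelled AR1-651 against empty vector, and 0 comparisons passed 2-fold. In the pair labelled AR1-651 the change with AIL was 0.01, and it turned to -0.21 with median-ratio scaling and to -0.54 once the trend of all genes with transcript length and GC was removed. As deposited, PTGES3 thus stood near the middle of the transcriptome, with 35.0% to 44.3% of the genes showing a lower change in each comparison. With the length and GC trend removed, its change was -0.58 for the library labelled AR1-651 against empty vector. It was then -0.55 with AIL in empty vector cells and -0.57 between the libraries with AIL. GENCODE names 5 processed copies of PTGES3 elsewhere in the genome, and none of these symbols was matched in the files. How the counting shared reads between near-identical copies is not given in the sources used here, so the level of PTGES3 carries that uncertainty.

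The HSP70-HSP90 adaptor was the cochaperone with the highest mRNA level in all 4 libraries. STIP1, also called HOP, hands clients from HSP70 to HSP90 (chr11:64185272-64204543, plus strand). It measured 149 RPKM with empty vector, 332 with empty vector + AIL, 312 in the library labelled AR1-651 and 386 in the library labelled AR1-651 + AIL. The untreated empty vector library stood apart at the low end, and the other 3 lay close together. Against empty vector the log2 change was 1.15 with AIL, a 2.23-fold RPKM ratio, and 1.06 in the library labelled AR1-651, a 2.10-fold ratio. Both comparisons share the same empty vector library, so they are not independent of each other. Within the pair labelled AR1-651 the change with AIL was 0.30. The call in the library labelled AR1-651 was lost where RPKM was divided by the library sum (0.70) and where ribosomal protein genes were left out (0.90), and the change was 1.33 with median-ratio scaling. STIP1 held 19.8% of the summed RPKM of the 9 genes with empty vector and 29.2% to 36.8% in the other libraries, whereas PTGES3 held 15.9% with empty vector and 7.80% to 9.97% elsewhere. These shares are set within a library and do not depend on scaling between libraries.

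CDC37, which loads protein kinases onto HSP90, also had its lowest level in the untreated empty vector library (chr19:10391134-10420121, minus strand). Its level was 122 RPKM with empty vector, 187 with empty vector + AIL, 194 in the library labelled AR1-651 and 198 in the library labelled AR1-651 + AIL. The log2 change from empty vector was 0.61 with AIL and 0.66 in the library labelled AR1-651, short of 2-fold. In the pair labelled AR1-651 it was 0.03, a sign that turned to -0.19 under median-ratio scaling.

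The mRNAs of the ATPase activator and of the FK506-binding immunophilin peaked together in the library labelled AR1-651. AHSA1, or AHA1, stimulates the ATPase of HSP90 (chr14:77457870-77469474, plus strand), and FKBP4, or FKBP52, joins HSP90 on steroid receptors and favours their activity (chr12:2794953-2805423, plus strand). AHSA1 was at 105 RPKM with empty vector, 96.0 with empty vector + AIL, 179 in the library labelled AR1-651 and 109.7 in the library labelled AR1-651 + AIL. FKBP4 was at 107 RPKM with empty vector, 126 with empty vector + AIL, 176 in the library labelled AR1-651 and 134 in the library labelled AR1-651 + AIL. For each gene the library labelled AR1-651 stood above the other 3, and the libraries with AIL lay near empty vector. Against empty vector the log2 change in the library labelled AR1-651 was 0.77 for AHSA1 and 0.71 for FKBP4. AHSA1 reached 1.03 under median-ratio scaling and FKBP4 reached 1.09 with the length and GC trend removed, both past 2-fold. With AIL in the pair labelled AR1-651, the change was -0.70 for AHSA1, a value that 11.1% of the genes lay below, and -0.39 for FKBP4.

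The cyclophilin and the phosphatase were expressed at lower levels and passed 2-fold in none of the comparisons. PPID encodes cyclophilin 40, the cyclophilin-type immunophilin of HSP90 (chr4:158709134-158723396, minus strand), and measured 31.8 RPKM with empty vector, 30.2 with empty vector + AIL, 31.4 in the library labelled AR1-651 and 40.4 in the library labelled AR1-651 + AIL. PPP5C encodes protein phosphatase 5, which dephosphorylates CDC37 and client receptors (chr19:46346994-46392981, plus strand), and measured 30.2, 40.4, 28.2 and 39.9 RPKM in the same order. The PPID value with both AR1-651 and AIL was the highest of its 4, while both PPP5C values with AIL exceeded both without it. The PPP5C change with AIL was 0.41 in empty vector cells and 0.48 in the pair labelled AR1-651. The PPID change in the pair labelled AR1-651, 0.36, turned to -0.16 with the length and GC trend removed.

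In the values as deposited, CHORDC1 and UNC45A moved furthest in the pair labelled AR1-651, in opposite directions. CHORDC1, a zinc-binding cochaperone whose protein carries a p23-like CS domain (chr11:90201160-90223364, minus strand), was at 16.3 RPKM with empty vector, 18.9 with empty vector + AIL, 10.8 in the library labelled AR1-651 and 27.6 in the library labelled AR1-651 + AIL. It was lowest in the library labelled AR1-651 and highest when AIL was added there. The log2 change with AIL in that pair was 1.27, a 2.55-fold RPKM ratio, and in the empty vector pair it was 0.20. The GC content of the CHORDC1 transcript, 37.3%, is among the lowest, with 3.66% of genes below it. Over 14005 genes the change in the pair labelled AR1-651 followed transcript GC (Spearman rho = -0.41, across genes measured in the same libraries), with a median of 0.71 in the sixth of genes with the lowest GC. With the length and GC trend removed, the CHORDC1 change was 0.43, no longer past 2-fold and below that of PPP5C (0.57). Between the libraries with AIL, the change over these 14005 genes followed transcript GC more strongly (Spearman rho = -0.61).

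UNC45A, which assists the folding of myosin heads together with HSP90 (chr15:90930180-90954093, plus strand), had, in the values as deposited, the lowest change of the 9 under AIL in both pairs; with the length and GC trend removed, PTGES3 lay lower in empty vector cells (-0.55 against -0.52), and AHSA1 and UNC45A lay level in the pair labelled AR1-651 (-0.72 and -0.71). It was at 71.95 RPKM with empty vector, 43.7 with empty vector + AIL, 55.2 in the library labelled AR1-651 and 30.2 in the library labelled AR1-651 + AIL. Each library with AIL lay below its untreated partner. The log2 change with AIL was -0.71 in empty vector cells and -0.85 in the pair labelled AR1-651, where 7.91% of the genes lay lower. It was -1.06 in that pair under median-ratio scaling, past 2-fold. UNC45A overlaps HDDC3 on the opposite strand over 5017 bases, and CDC37 overlaps PDE4A likewise over 3349 bases. Antisense transcripts are annotated across FKBP4. The kit kept strand, but whether strand was used in counting is not given in the sources used here, so reads of these partners may be included.

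**Figure D2:**
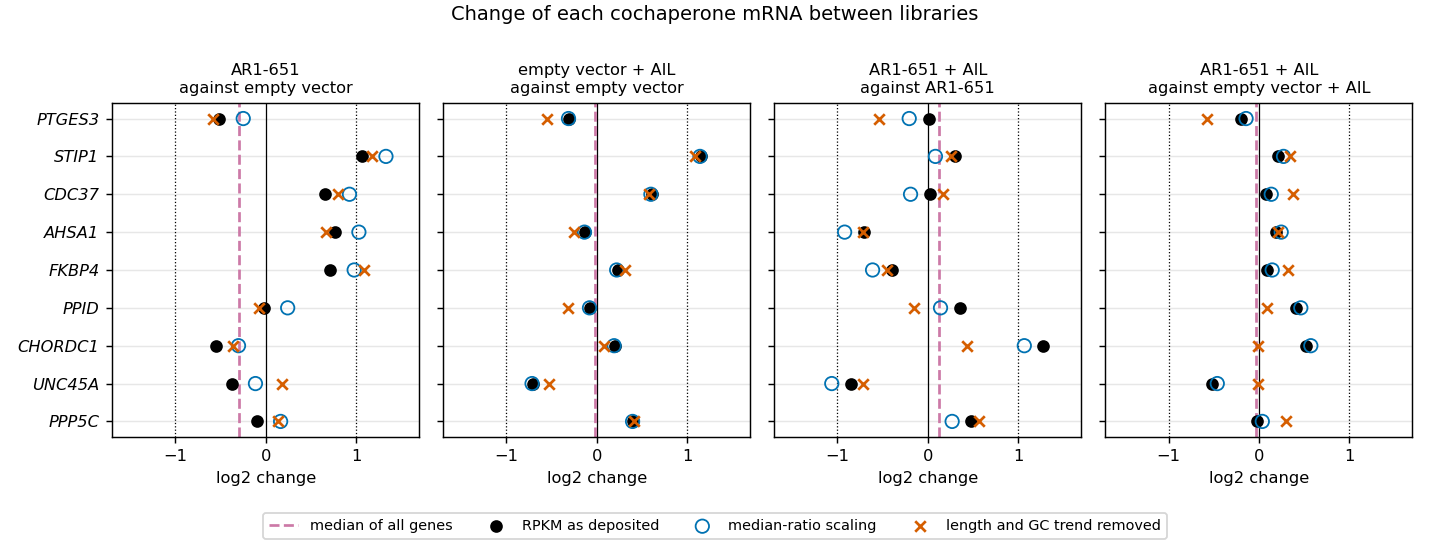
Log2 change of each of the 9 cochaperone mRNAs in the 4 comparisons, as deposited (filled points), after median-ratio scaling (open circles) and with the transcript length and GC trend removed (crosses). Dotted lines mark 2-fold and the dashed line the median of all genes, at -0.30 in the first panel. STIP1 lies at 1.06 and 1.15 in the first and second panels and CHORDC1 at 1.27 in the third, and no filled point reaches either line in the fourth.

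Counted together, no more than 1 of the 9 genes was called in any comparison. In the library labelled AR1-651 against empty vector, 1 of 9 was 2-fold higher (STIP1) and 0 were lower, where 4.01% of all genes were higher and 11.6% lower (15.6% either way). With median-ratio scaling, the calls over all genes went from 586 higher and 1701 lower to 1073 higher and 817 lower. With AIL in empty vector cells, 1 of 9 was higher (STIP1) and 0 were lower, beside 9.53% and 9.03% of all genes (18.6% either way). With AIL in the pair labelled AR1-651, 1 of 9 was higher (CHORDC1) and 0 were lower, beside 14.9% and 5.74% of all genes (20.7% either way). Here scaling took the calls over all genes from 2184 higher and 839 lower to 1582 higher and 1264 lower. Between the libraries with AIL, 0 of 9 were called, beside 1.46% higher and 3.53% lower (5.0% either way).

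The median change of the 9 genes was -0.02, 0.20, 0.03 and 0.09 in these 4 comparisons, beside all-gene medians of -0.30, -0.02, 0.13 and -0.03. Relative to the all-gene median, the library labelled AR1-651 against empty vector gave 1.36 for STIP1, 1.07 for AHSA1, 1.01 for FKBP4 and 0.96 for CDC37. For PTGES3 and CHORDC1 it gave -0.21 and -0.25, and both stayed below 0 under every scaling tried. For PPID, PPP5C and UNC45A it gave 0.28, 0.21 and -0.08. As deposited these 3 lay below 0, at -0.02, -0.09 and -0.38, and the sign turned for PPID (0.24) and PPP5C (0.17) with median-ratio scaling and for UNC45A (0.18) with the trend removed. In the comparison of AIL in empty vector cells, all 9 genes had the same sign in every alternative tried.

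The AIL changes in empty vector cells and in the pair labelled AR1-651 rest on separate libraries and were set side by side. CDC37, CHORDC1, PPP5C and STIP1 were higher with AIL in both pairs, 4 of 9 genes beside 38.0% of all genes. AHSA1 and UNC45A were lower in both, 2 of 9 beside 32.2%, and FKBP4, PPID and PTGES3 had opposite signs, 3 of 9 beside 29.8%. As median-ratio scaling turned the sign of CDC37 and PTGES3 in the pair labelled AR1-651, these groupings hold for the values as deposited. None of the 9 genes passed 2-fold in both pairs, which 5.67% of all genes did upward and 2.93% downward. The change in the pair labelled AR1-651 minus that in empty vector cells was 1.07 for CHORDC1, -0.85 for STIP1, -0.62 for FKBP4, -0.58 for CDC37 and -0.57 for AHSA1. It was 0.43 for PPID, 0.32 for PTGES3, -0.14 for UNC45A and 0.08 for PPP5C. The difference for CHORDC1 was 0.36 with the length and GC trend removed.

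**Figure D3:**
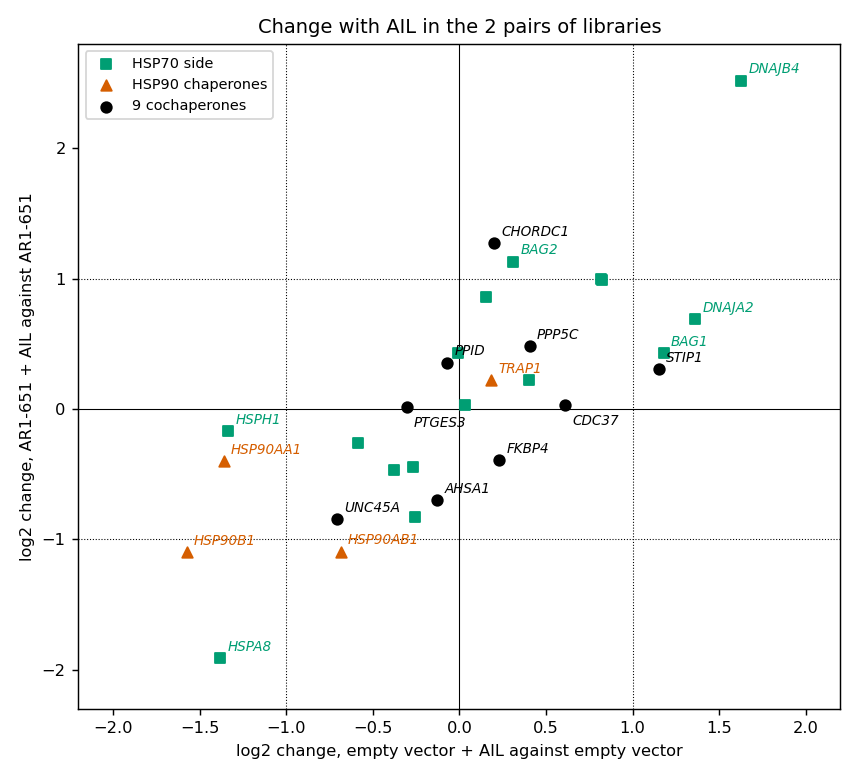
Log2 change with AIL in empty vector cells (horizontal) against that in the pair labelled AR1-651 (vertical) for the 9 cochaperones, 4 HSP90 family genes and 16 genes on the HSP70 side (1 point is 1 gene, dotted lines are 2-fold). The cochaperones lie on both sides of 0, while HSP90AA1, HSP90AB1, HSP90B1 and HSPA8 lie at the lower left and DNAJB4 at the upper right.

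The mRNA of the cytosolic and endoplasmic reticulum forms of HSP90 was lower with AIL. For protein, the study reported that AIL treatment left HSP90 without a decrease. HSP90AA1, the stress-inducible cytosolic form, was at 609.9 RPKM with empty vector, 237 with empty vector + AIL, 489.6 in the library labelled AR1-651 and 370.4 in the library labelled AR1-651 + AIL. HSP90AB1, the constitutive cytosolic form, was at 688, 428, 1068 and 499.6 RPKM in the same order. The summed RPKM of both cytosolic forms was 1298, 664, 1558 and 869.99, so it stood at 0.512 of the untreated level with AIL in empty vector cells and at 0.559 in the pair labelled AR1-651. HSP90B1, the form of the endoplasmic reticulum, was at 362, 121, 391 and 182 RPKM, and its log2 change with AIL was -1.58 and -1.10, past 2-fold in both pairs. TRAP1, the mitochondrial form, stayed between 60.2 and 85.1 RPKM, and its log2 change with AIL was 0.18 and 0.22. Thus 2 of 4 HSP90 genes were 2-fold lower in each AIL comparison, HSP90AA1 (-1.36) and HSP90B1 in empty vector cells and HSP90AB1 (-1.09) and HSP90B1 in the pair labelled AR1-651, beside 9.03% and 5.74% of all genes. The ratio of HSP90AA1 to HSP90AB1 was 0.886, 0.554, 0.458 and 0.742, highest in the untreated empty vector library and lowest in the library labelled AR1-651. GENCODE names 4 processed copies of HSP90AA1 and 5 of HSP90AB1, of which HSP90AB4P alone was matched in the files, at no more than 1.23 RPKM.

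The 9 cochaperones summed to 753 RPKM with empty vector, 971 with empty vector + AIL, 1070.4 in the library labelled AR1-651 and 1049.9 in the library labelled AR1-651 + AIL. As a share of cytosolic HSP90 mRNA, a ratio taken within each library, the sum was 58.0%, 146%, 68.7% and 121%. Cochaperone mRNA thus exceeded cytosolic HSP90 mRNA in the libraries with AIL and lay below it in those without. Since HSP90 is the denominator, most genes share this shift. With AIL, 9 of 9 members had a higher ratio to HSP90 in empty vector cells, beside 84.9% of all genes, and 8 of 9 in the pair labelled AR1-651, beside 88.4%. UNC45A was the exception there, with a ratio 0.981 times that without AIL. In the library labelled AR1-651 against empty vector 4 of 9 had a higher ratio, beside 21.6% of all genes, and between the libraries with AIL 2 of 9 did, beside 21.1%.

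Within this shift the members differed in size. STIP1 went from 11.5% of cytosolic HSP90 RPKM with empty vector to 49.99% with empty vector + AIL, 4.36-fold. In the libraries labelled AR1-651 and AR1-651 + AIL it stood at 20.0% and 44.4%, 2.21-fold apart. PTGES3 stood at 9.22% and 14.6% with empty vector without and with AIL, 1.58-fold apart. In the libraries labelled AR1-651 and AR1-651 + AIL it was at 5.36% and 9.68%. PTGES3 was thus lower relative to HSP90 in each library labelled AR1-651 than in its empty vector partner, at 0.582 times the ratio without AIL and 0.665 times with it. As deposited, CHORDC1 had the largest fold of the 9 in the pair labelled AR1-651, from 0.695% to 3.17%. STIP1 had the largest in empty vector cells. With the length and GC trend removed, the log2 change in the pair labelled AR1-651 was 0.43 for CHORDC1, below 0.57 for PPP5C.

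**Figure D4:**
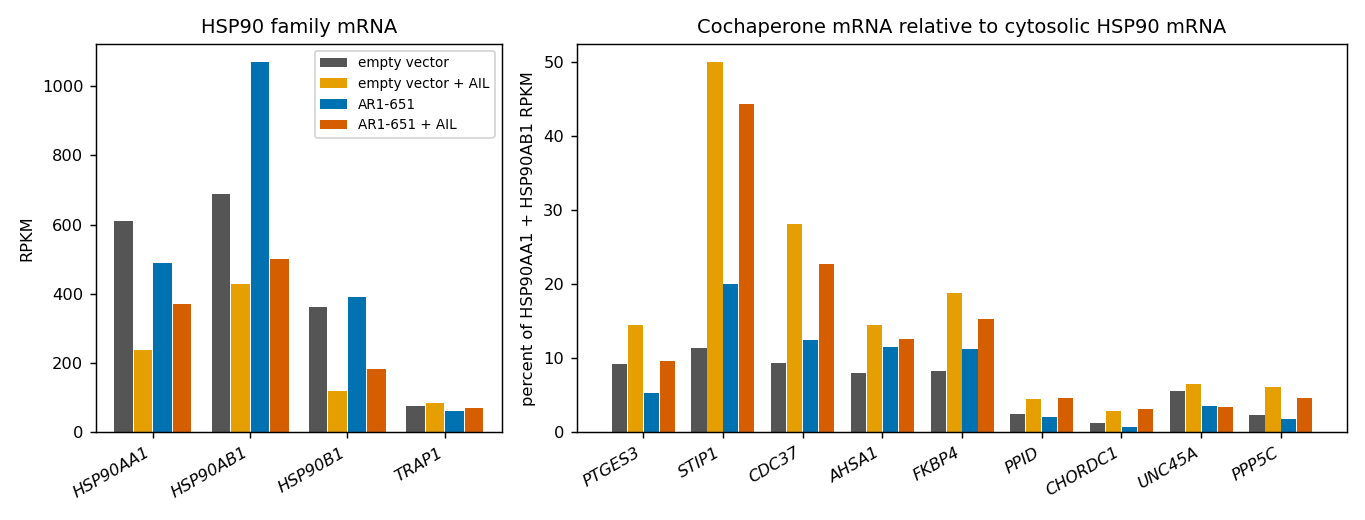
Left, RPKM of the 4 HSP90 family genes in the 4 libraries; right, each cochaperone as a percent of the summed RPKM of HSP90AA1 and HSP90AB1 in the same library (bars start at 0, 1 library each, no error bars). Cytosolic HSP90 bars are lower with AIL, and the STIP1 ratio goes from 11.5% to 49.99% in empty vector cells and from 20.0% to 44.4% in the pair labelled AR1-651.

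A wider list of 36 further HSP90 cochaperones and cofactors had 33 genes in the files, all of them past the filter. In the library labelled AR1-651 against empty vector, 3 were 2-fold higher (FKBP5, AARSD1 and NUDCD2) and 2 were lower (TSC1 and FLCN), beside 4.01% and 11.6% of all genes. With AIL in empty vector cells 3 were higher (TTC4, TTI2 and SMYD2) and 0 lower, beside 9.53% and 9.03% of all genes. With AIL in the pair labelled AR1-651 5 were higher (RPAP3, CDC37L1, TTC4, TTI2 and NUDCD1) and FKBP5 was the 1 lower, beside 14.9% and 5.74% of all genes. The counts of genes higher with AIL thus lay near the share of all genes. Between the libraries with AIL, FKBP5 was the 1 called, and it was higher in the library labelled AR1-651 + AIL. The medians of the list were -0.08, 0.29, 0.10 and 0.10 in these comparisons, beside the all-gene values above.

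FKBP5, or FKBP51, is the close relative of FKBP4 that competes with it on receptor complexes and is itself induced by androgen. It was at 7.04 RPKM with empty vector, 7.29 with empty vector + AIL, 62.2 in the library labelled AR1-651 and 19.5 in the library labelled AR1-651 + AIL. Its log2 change was 2.97 in the library labelled AR1-651 against empty vector, where FKBP4 had 0.71. With AIL in the pair labelled AR1-651 it was -1.63, where FKBP4 had -0.39, and in empty vector cells it was 0.04. FKBP5 thus had its highest level in the same library as FKBP4, at 3.99% of cytosolic HSP90 mRNA beside 11.3% for FKBP4.

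As deposited, the genes of this list past 2-fold with AIL in both pairs were an HSP90 adaptor and a subunit of a client-loading complex. In the pair labelled AR1-651, TTC4 and TTI2 each changed by 1.19. Median-ratio scaling lowers log2 changes in this pair by about 0.22, which takes both genes below 2-fold there. TTC4, a tetratricopeptide adaptor of HSP90, was at 13.9 RPKM with empty vector, 38.8 with empty vector + AIL, 17.8 in the library labelled AR1-651 and 41.9 in the library labelled AR1-651 + AIL. TTI2, part of the complex that brings PI3K-related kinases to HSP90, was at 14.1, 30.4, 16.3 and 38.6 RPKM in the same order. For both, the libraries with AIL lay above those without. RPAP3, the tetratricopeptide subunit of the R2TP complex that assembles RNA polymerases, was at 12.9, 20.6, 9.24 and 28.8 RPKM. CDC37L1, the CDC37-like protein, was at 10.3, 20.9, 13.2 and 33.2 RPKM, and NUDCD1, which carries a CS domain, at 2.95, 4.46, 2.49 and 6.97 RPKM. These also were highest in the library labelled AR1-651 + AIL. Their transcript GC content, 36.7%, 37.2% and 37.2%, is close to that of CHORDC1. The trend with GC was not removed from these values. AARSD1 (36.8, 74.0, 80.7 and 89.7 RPKM) and NUDCD2 (63.1, 123, 133 and 142 RPKM) had the pattern of STIP1, with the untreated empty vector library lowest. TSC1, which slows the HSP90 ATPase, was at 5.29 RPKM with empty vector and at 2.13 to 2.47 in the other 3. FLCN, a client held by its cochaperone partners, went from 17.2 RPKM with empty vector to 8.01 in the library labelled AR1-651, and SMYD2, a lysine methyltransferase found with HSP90, from 1.75 RPKM to 5.43 with AIL in empty vector cells.

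On the HSP70 side of the cycle, the partner of STIP1 was lower with AIL in both pairs while STIP1 was higher. HSPA8, the constitutive HSP70, was at 846.5 RPKM with empty vector, 324 with empty vector + AIL, 1059 in the library labelled AR1-651 and 281 in the library labelled AR1-651 + AIL. Its log2 change with AIL was -1.38 and -1.91 in the respective pairs, next to 1.15 and 0.30 for STIP1. The second STIP1 value stood beside an all-gene median of 0.13 and was 0.08 under median-ratio scaling. Of the 16 genes of this list, 3 were 2-fold higher with AIL in empty vector cells (DNAJB4, DNAJA2 and BAG1) and 2 lower (HSPA8 and HSPH1), beside 9.53% and 9.03% of all genes. In the pair labelled AR1-651 2 were higher (DNAJB4 and BAG2) and 1 lower (HSPA8), beside 14.9% and 5.74% of all genes. DNAJB4, a J-domain partner of HSP70, was at 9.25, 30.7, 7.54 and 47.97 RPKM, and its change with AIL was 1.63 and 2.52. Its transcript GC content, 33.1%, lies below that of CHORDC1, and the trend with GC was not removed from these values. HSPH1, a nucleotide exchange factor, was at 48.1, 18.5, 29.02 and 25.7 RPKM. DNAJA2 (39.1, 102, 82.8 and 134 RPKM) and BAG1 (19.2, 44.7, 35.1 and 47.5 RPKM) again had the untreated empty vector library lowest, and DNAJA2 was the 1 gene of the list past 2-fold in the library labelled AR1-651 against empty vector. BAG2 was listed at 0 in the library labelled AR1-651 and at no more than 1.19 RPKM in any, so no fold is given. Between the libraries with AIL 0 of the 16 were called.

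HSF1 and classical targets not placed in the lists above made up a further list. Of 13 genes, 12 passed the filter, and 0 were 2-fold higher or lower with AIL in empty vector cells, where 18.6% of all genes were. With AIL in the pair labelled AR1-651 2 were higher (HSF2 and HSPA4L) and 0 lower, beside 14.9% and 5.74% of all genes. Transcript GC content was 40.7% for HSF2 and 38.1% for HSPA4L, and the trend with GC was not removed from these calls. HSP90AA1, HSPH1 and HSPA8, which are HSF1 targets too, were counted in the lists above. HSF1 was at 47.6 RPKM with empty vector, 45.1 with empty vector + AIL, 24.4 in the library labelled AR1-651 and 23.4 in the library labelled AR1-651 + AIL. HSF2, a related factor, was at 5.33, 11.7, 4.22 and 17.7 RPKM, and its change with AIL in empty vector cells fell just short of 2-fold on the log2(RPKM + 1) scale. HSPE1, the mitochondrial cochaperonin, was 2-fold higher in the library labelled AR1-651 against empty vector, at 335 RPKM against 141, and HSPA4L, an HSP110 family member, was 2-fold lower, at 4.05 RPKM against 10.2. These 2 of 12 genes stood beside 15.6% of all genes called there in either direction. Between the libraries with AIL 0 of 12 were called.

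The chaperone genes with the promoter letters shown for STIP1 and CHORDC1 lay in both directions. Among the members, HSP90 genes, further cochaperones and the HSP70 side, 16 kept genes held a core element in their window. Of these, 8 were higher with AIL in both pairs, among them STIP1, CHORDC1 and DNAJB4, and 6 were lower in both, among them HSP90AA1, HSP90AB1 and HSPA8, where 38.0% of all genes were higher in both and 32.2% lower in both. The remaining 2, NUDC and TSC1, had opposite signs. These counts hold for the values as deposited, with the GC trend not removed. Among the 8 are BAG2, at no more than 1.19 RPKM, and DNAJA1, at 0.03 in each pair. Median-ratio scaling lowers log2 changes in the pair labelled AR1-651 by about 0.22, which takes DNAJA1 below 0 there. HSP90AB1 and HSPA8 held 4 matches each, and HSP90AA1 held 3.

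The mRNAs of AKT1 and CDK4, kinase clients of HSP90 whose protein the study followed, were lower with AIL. AKT1, a survival kinase, was at 107, 62.4, 103 and 46.2 RPKM, with log2 changes of -0.77 in empty vector cells and -1.14 in the pair labelled AR1-651, the latter past 2-fold. CDK4, a cell cycle kinase that depends on CDC37, was at 61.2, 39.9, 77.0 and 39.8 RPKM, with changes of -0.60 and -0.94. The latter was -1.15 under median-ratio scaling, past 2-fold. For both genes each library with AIL lay below its untreated partner. The glucocorticoid receptor NR3C1 was at 0.45 to 1.24 RPKM, and the progesterone receptor PGR did not reach the filter.

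No other cochaperone of the 9 came close to PTGES3 in its profile over the libraries. Likeness was the Euclidean distance between log2(RPKM + 1) values over the 4 libraries, each gene centred on its mean, among 5123 genes at 10 RPKM or more throughout. The nearest were ADIPOR2 (0.050), HCFC1R1 (0.060), EIF2AK1 (0.063), SCMH1 (0.067) and CLNS1A (0.091), with 1 library per condition behind each point. ADIPOR2, for example, was at 20.9, 17.2, 15.1 and 15.1 RPKM, so that, as for PTGES3, empty vector was highest, empty vector + AIL next and the libraries labelled AR1-651 were lowest. Of the other members PPID was nearest, at a distance of 0.62 and rank 1655, and STIP1 farthest, at 1.45 and rank 4639.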

How the data were processed

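LNCaP RNA was sequenced as 4 libraries, 1 per condition, on an Illumina instrument. The labels name a stranded kit with ribosomal RNA removal and also oligo(dT) selection. The authors deposited RPKM per gene, to 2 decimals, by Entrez Gene identifier. The processing notes name BWA 0.7.10-r789 and hg19, with no roles; the counting tool and annotation release are not given in the sources used here. RPKM is relative to all mapped reads, so a library rich in a few transcripts shows lower values for the rest. Whole reads were not recovered (at most 10.4% of low values of short genes lay within 0.006 RPKM of whole multiples), so depth is unknown and no interval is given.

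Symbols came from a RefSeq table (19703 genes matched), positions, transcript length and GC from GENCODE 29 on GRCh38, used for description and for the trend. Genes at 1 RPKM or more in any library were kept, log2(RPKM + 1) was compared, and 2-fold was called, with no test. The length and GC trend was a polynomial of degree 3 in ranks. All 9 members are named, as are genes of each list past 2-fold in any comparison, all HSP90 genes, clients, and the 5 genes most like PTGES3; the other genes named are marker, copy or overlap checks or genes holding a heat shock element. Some genes of the lists are not reported here. Members and lists were chosen with earlier results of these data known. Calculations were checked on simulated data. Alternatives were another pseudocount, 3 scalings, 2 filters, a 1.5-fold threshold, the trend removed and, added after seeing the data, 3 other HSP90 denominators. Python 3.11.15, NumPy 2.4.6, pandas 2.3.3, SciPy 1.17.1 and Matplotlib 3.10.9 were used.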

Additional observations from a re-analysis of the deposited data

Results flagged for a closer look

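The change with AIL had opposite signs in empty vector cells and in the pair labelled AR1-651 for 3 of the 9 cochaperones, which is what marked them for a closer look. With 1 library per condition the difference was not tested. For PTGES3 the log2 change was -0.30 in empty vector cells and 0.01 in the pair labelled AR1-651, a difference of 0.32, and the second change was -0.21 under median-ratio scaling, which removes the opposite sign. For FKBP4 it was 0.23 and -0.39, a difference of -0.62. For PPID it was -0.07 and 0.36, a difference of 0.43, and the second change was -0.16 with the length and GC trend removed. Over all genes kept, 29.8% had opposite signs or no change.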

How the results depend on the processing

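Of 419 values recomputed under an alternative, 401 stayed within 1.5-fold of the reported value and, for a gene's change in a comparison, on its side of 2-fold. The other 18 did not, and 0 called values changed sign. The 401 include 45 gene values and 12 counts or medians for each of the 2 filters, which could not differ. Every member passes both filters. Differences between AIL changes were not called and were held to 1.5-fold alone. In the library labelled AR1-651 against empty vector, the count of members 2-fold higher (1 as reported) was 2 under median-ratio scaling, 2 with the length and GC trend removed, 0 with RPKM divided by the library sum, 0 without ribosomal protein genes and 4 at 1.5-fold. With AIL in empty vector cells, 1.5-fold gave 2 higher and 1 lower. With AIL in the pair labelled AR1-651, removing the trend gave 0 higher, median-ratio scaling 1 lower and 1.5-fold 2 lower. With HSP90AA1 alone as denominator, chosen after seeing the data, 0 members had a higher ratio between the libraries with AIL, against 2 as reported. The cause was not tested. A pseudocount of 0.1 moved none of these counts. Neither the absence of a filter nor a filter of 5 RPKM could move them, since every member passes. The sign of the change held in every alternative for 6, 9, 6 and 7 of the 9 members in the 4 comparisons, in the order of the report. No paired analysis was possible because each condition has 1 library and the replicate number pairs nothing. Without replicates or read counts, neither biological nor counting error is known.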
